A study of Mus musculus with 6 samples.

Results

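The 81 genes that encode the proteins of the mouse cytosolic ribosome were examined for p53 binding at their promoters in spleen. They were taken from the 22380 protein-coding genes of the annotation by symbol (Rpl or Rps forms, with Rpsa and Rplp0 to Rplp2), and 32 encode proteins named for the small 40S subunit and 49 proteins named for the large 60S subunit. Symbols marked as pseudogenes and the Rps6k kinases were left out, and so were the forms ending in l1. Ribosomal proteins encoded under other symbols, such as Fau, were not members.

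p53 was immunoprecipitated with the NCL-p53-CM5p antibody from spleen cells of C57/Bl6 mice, and the sequenced fragments gave 1 list of peaks per library (ChIP-seq). B cells were selected from Trp53+/+ animals of 8 weeks with B220 beads, and the column flow-through, a mixed fraction that the study describes as enriched in T cells, stood for non-B cells. Both were taken from mock-treated mice (mock) or at 4 h after a whole-body dose of 7 Gy (IR). Total spleen of Trp53-/- mice, which lack p53 and whose age the labels do not give, at 4 h after 7 Gy was the control for antibody background. Each of the 5 groups was 1 library made from pooled animals, so no value below has a replicate check and no test was run.

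The lists held 1413 peaks in mock B cells, 24507 in irradiated B cells, 712 in mock non-B cells, 21400 in irradiated non-B cells and 83 in irradiated Trp53-/- spleen. The value deposited with each peak behaves as −log10 of its p-value, and it depends on depth and is not normalised between libraries. The study called peaks at a limit that corresponds to a value of 8 on that scale, yet 31.6% of the peaks in mock B cells, 20.9% in mock non-B cells, 4.5 and 4.53% in the wild-type IR lists and 9.64% in Trp53-/- spleen lay below 8, so what the value stands for is not certain. It was therefore read as a percentile, the percent of peaks in the same list at or below it, with ties counted at their middle. Depth is unknown, since a list holds no read totals, and binding below the calling limit leaves no peak. The narrowest peak measured 55 and 53 bp in the mock lists and 175 and 174 bp in the wild-type IR lists, so mock and IR lists differ in their minimum width as well as in treatment, and the parts of both in a peak count cannot be told apart.

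Ribosomes are built from ribosomal RNA and 1 copy of nearly every ribosomal protein, so the genes for these proteins are transcribed together at a high rate in almost every cell. p53 is a transcription factor that is held low by the ubiquitin ligase Mdm2 and accumulates after DNA damage, and it binds a palindromic element made of a pair of decamers. Some ribosomal proteins, Rpl5 and Rpl11 foremost, bind Mdm2 when ribosome assembly fails, which ties the family to p53 at the protein level.

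Only 2 member promoters held an unsplit p53 element of at most 3 mismatches within 300 bp of a peak midpoint, and these are shown first because they lay under the highest 2 member peaks of both IR lists. In the sequences of the reference genome (mm9), capitals mark the bases that match the consensus. The Rps27l element lies at chr9:66794103-66794122 on the plus strand, in the first intron, 219 bp downstream of the start site, and has 1 mismatch. The Rps19 element lies at chr7:25669822-25669841 on the plus strand, 441 bp downstream of the start site, and has 2 mismatches. It falls in the first intron of transcript Rps19-001 and in an exon outside the coding sequence of other transcripts.
Rps27l element: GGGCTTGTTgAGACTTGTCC
Rps19 element: cGGCAgGCCCGGACATGCCT

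The 100 bases around the Rps27l element (chr9:66794053-66794152, plus strand, all intronic) are given with the element in capitals.
Rps27l intron: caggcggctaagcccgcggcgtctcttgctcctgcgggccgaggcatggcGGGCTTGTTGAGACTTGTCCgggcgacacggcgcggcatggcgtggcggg

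The 60 bases upstream of the start site of the next 5 members by value in irradiated B cells are given for contrast, each on its gene's strand. The highest peak of each held no unsplit element of at most 3 mismatches within 300 bp of its midpoint. They lie at chr11:101303552-101303611 (Rpl27, plus), chr1:16094744-16094803 (Rpl7, minus), chr10:23507016-23507075 (Rps12, minus), chr15:79913837-79913896 (Rpl3, minus) and chr15:5066553-5066612 (Rpl37, plus). Capitals mark the letters of the Sp1 and ETS motifs searched below, which of these 5 stretches were found only in that of Rpl37.
Rpl27 upstream: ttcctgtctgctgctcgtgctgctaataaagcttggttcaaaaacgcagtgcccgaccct
Rpl7 upstream: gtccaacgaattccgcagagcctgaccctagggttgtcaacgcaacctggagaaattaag
Rps12 upstream: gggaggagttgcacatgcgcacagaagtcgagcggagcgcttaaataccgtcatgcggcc
Rpl3 upstream: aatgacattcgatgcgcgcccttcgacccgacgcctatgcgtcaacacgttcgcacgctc
Rpl37 upstream: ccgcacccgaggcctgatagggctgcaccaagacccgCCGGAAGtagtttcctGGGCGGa

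Nearly all ribosomal protein promoters carried a p53 peak after irradiation and few did before it. A promoter was counted when a peak midpoint lay within 1 kb of an annotated start site. In irradiated B cells 77 of 81 members were listed (95.1%, exact 95% interval 87.8 to 98.6%, which covers counting error only), against 7835 of all 22380 protein-coding genes (35.0%). In irradiated non-B cells 75 of 81 were listed (92.6%, interval 84.6 to 97.2%), against 7660 of all genes (34.2%). Both IR lists held 74 members (91.4%), against 7074 of all genes (31.6%).

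In the mock lists 6 of 81 members were listed in B cells (7.41%, interval 2.77 to 15.4%) and 3 of 81 in non-B cells (3.7%, interval 0.77 to 10.4%). The shares over all genes were 1.36% (304 genes) and 0.652% (146 genes). In irradiated Trp53-/- spleen no member was listed, which allows a share of up to 4.45%, and 0.0492% of all genes were (11 genes). That library comes from total spleen, and its list is too short for its 0 to set a narrow limit on background at these promoters. Its peaks were also narrower, with a median width of 82 bp against 340 and 315 bp in the wild-type IR lists.

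Most members of both subunits were listed after irradiation. Of the 32 genes of the 40S subunit, 31 were listed in irradiated B cells and 30 in irradiated non-B cells. Of the 49 genes of the 60S subunit, 46 and 45 were listed, and the 3 members in neither IR list were all of this group. In mock B cells 4 of 32 (12.5%) and 2 of 49 (4.08%) were listed, and in mock non-B cells 2 of 32 (6.25%) and 1 of 49 (2.04%). The difference between the subunits was not tested.

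Other gene families of the protein synthesis and turnover machinery were also listed well above the share of all genes. Ribosome biogenesis factors, which process ribosomal RNA and assemble subunits, had the closest shares to the ribosomal proteins, with 39 of 42 in irradiated B cells (92.9%) and 40 of 42 in irradiated non-B cells (95.2%). Mitochondrial ribosomal proteins, encoded in the nucleus for a separate ribosome, had 64 of 76 (84.2%) and 62 of 76 (81.6%). Translation factors of the Eif and Eef families had 50 of 67 (74.6%) and 53 of 67 (79.1%), and proteasome subunits 34 of 41 (82.9%) and 35 of 41 (85.4%). A high share was thus shared by all 5 families, and its relation to transcription of these genes was not tested, since the peak lists hold no expression.

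Base composition moved with the peaks over all promoters. Promoters were called CpG-rich when the observed over expected CpG ratio was at least 0.6 in the 300 bases from 250 before to 50 after the start site. Of all 10197 such promoters, 58.2% were listed in irradiated B cells (5939) and 57.4% in irradiated non-B cells (5856). Members were CpG-rich in 65 of 81 cases (80.2%, against 45.6% of all promoters). Of these 65, 62 were listed in each IR list (95.4%). Over all 81 members the shares were 95.1% in irradiated B cells and 92.6% in irradiated non-B cells. Against CpG-rich promoters the members' excess was smaller than against all promoters. The part of base composition in the members' share was not tested.

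**Figure D1:**
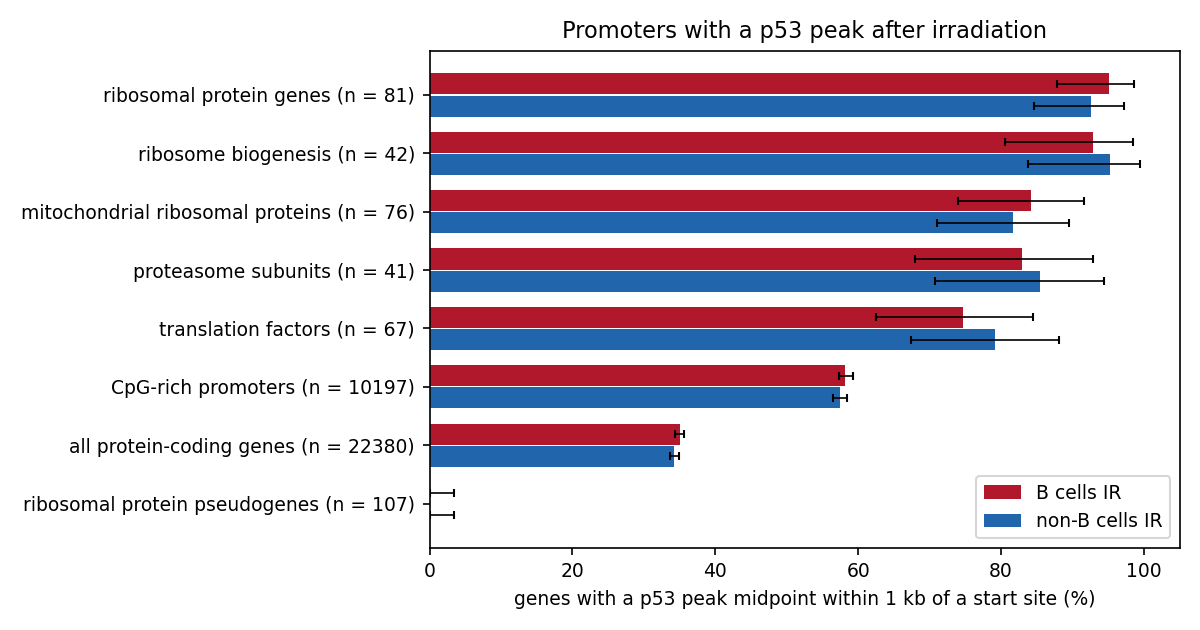
Percent of genes with a p53 peak midpoint within 1 kb of a start site in the list of irradiated B cells (red) and irradiated non-B cells (blue), for the ribosomal protein genes, 4 other gene families, CpG-rich promoters, all protein-coding genes and ribosomal protein pseudogenes. Bars are shares and whiskers exact 95% intervals for counting error. The ribosomal protein bars stand at 95.1 and 92.6%, the bars of all genes at 35.0 and 34.2%, and the pseudogenes at 0.

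Copies of ribosomal protein genes are common in mammalian genomes as processed pseudogenes, which lack the promoter of the parent gene. None of the 107 annotated pseudogenes with a ribosomal protein symbol had a peak within 1 kb of its start in any list, which allows a share of up to 3.39%. Of all 5209 annotated pseudogenes, 92 (1.77%) were listed in irradiated B cells and 79 (1.52%) in irradiated non-B cells. Reads from repeated sequence may be lost or misplaced in alignment, so the uniqueness of the member peaks was measured in the reference genome. In the 88 member peaks of irradiated B cells and the 84 of irradiated non-B cells, the median 31-base stretch occurred 1 time in the genome in every peak. A median of 97.8 and 98% of the stretches of a peak occurred 1 time, and the lowest shares were 62.3% (Rpl37) and 61.5% (Rpl37a). The 62.3% belongs to a lower Rpl37 peak 786 bp downstream of the start site. The highest Rpl37 peak in irradiated B cells had 98.6%.

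Some members share their promoter with another gene. Another protein-coding start site lay within 1 kb of the start of 15 members, on the opposite strand for 14 of them, as for Rpl9 and Lias (54 bp), Rps27 and Rab13 (44 bp) or Rpl12 and Lrsam1 (33 bp). All 15 were listed in both IR lists, and a peak there cannot be given to either gene. Of the other 66 members, 62 were listed in irradiated B cells (93.9%) and 60 in irradiated non-B cells (90.9%).

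Rps27l and Rps19 stood far above the rest of the family in both IR lists. Rps27l encodes a paralogue of the small-subunit protein Rps27 and is a known p53 target gene. Its main peak had values of 14.96 in mock B cells, 255.44 in irradiated B cells, 13.73 in mock non-B cells and 389.96 in irradiated non-B cells. These lay at percentiles 81.3, 99.6, 67.2 and 99.5, and in the IR lists at rank 99 of 24507 and 102 of 21400. The IR peaks were 1779 and 1494 bp wide, against 375 and 371 bp in the mock lists. Each of the 4 lists held a further, lower peak near another annotated start of the gene, but mock and IR lists held it at different places. In mock B cells it lay 341 to 500 bp downstream of the start site (7.46) and in mock non-B cells 387 to 442 bp (9.65). Both stretches lie inside the main IR peaks. In irradiated B cells it lay at 1373 to 1606 bp (14.1) and in irradiated non-B cells at 1369 to 1558 bp (11.15).

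Rps19, a small-subunit protein needed for processing of the 18S ribosomal RNA precursor and mutated in Diamond-Blackfan anaemia, was the member with the highest mock values. Its main peak had values of 43.56 in mock B cells, 244.05 in irradiated B cells, 56.5 in mock non-B cells and 388.11 in irradiated non-B cells. The mock peaks were at rank 51 of 1413 and 33 of 712 (percentiles 96.4 and 95.4), and the IR peaks at rank 121 and 103 (percentile 99.5 in both). mock B cells held a further peak of 11.63 at the start site. The gene was thus near the top of its list before and after irradiation in both compartments. The candidate elements printed above lay 147 bp (Rps27l) and 202 bp (Rps19) from the peak midpoint in irradiated B cells, and 213 and 139 bp in irradiated non-B cells.

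**Figure D2:**
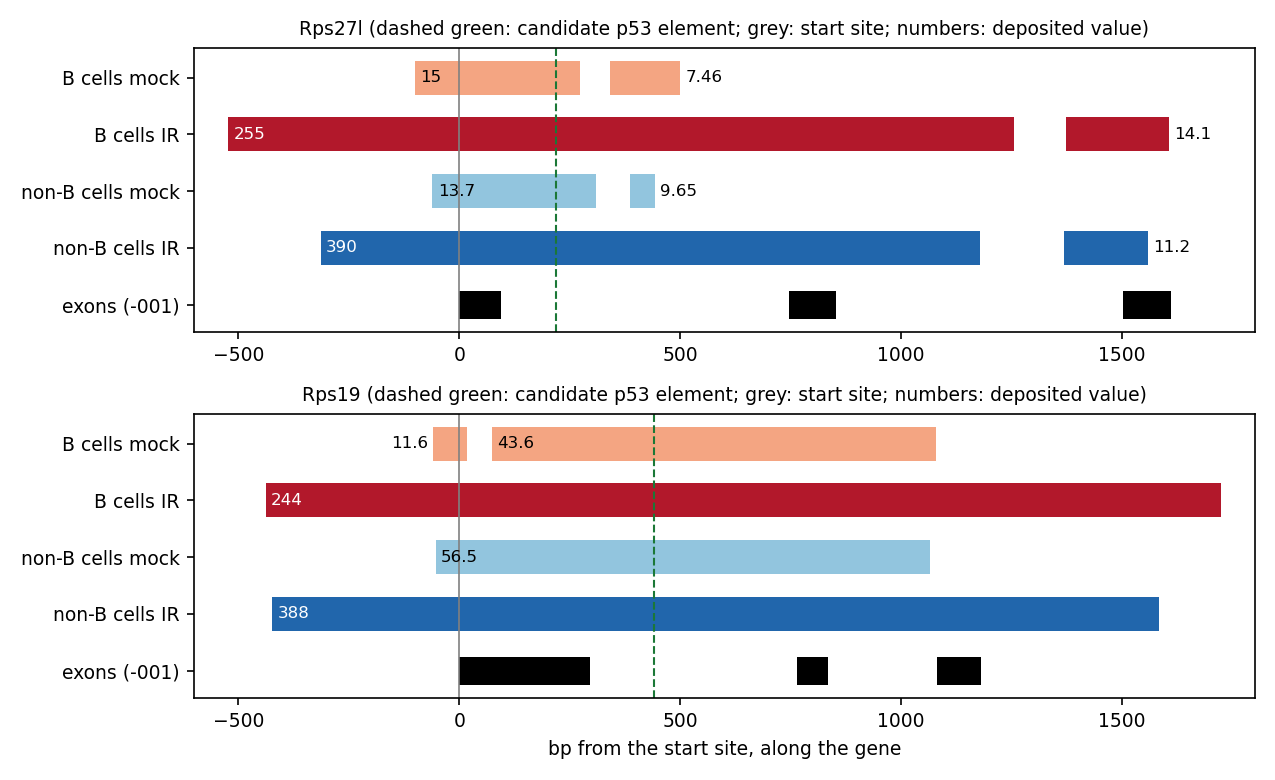
Promoter peaks of Rps27l (top) and Rps19 (bottom) in the 4 wild-type lists, drawn to scale against the distance in bp from the start site along the gene, with the exons of transcript -001 in black and the deposited value printed at each peak. The dashed green line is the candidate p53 element, 219 bp downstream of the start site of Rps27l and 441 bp downstream of that of Rps19, and it falls inside the main peak of each list.

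The other 4 members listed in a mock sample were Rpl27, Rps12, Rpl19 and Rps3a. Rpl27, a large-subunit protein, was the only one of them in both mock lists, with 13.73 in mock B cells (percentile 78), 93.57 in irradiated B cells (95.2), 14.96 in mock non-B cells (69.6) and 82.73 in irradiated non-B cells (94.3). Rps12, a small-subunit protein, had 10.24 in mock B cells (57.4), 77.92 in irradiated B cells (93.3) and 63.04 in irradiated non-B cells (91.3). These 2 were high in the IR lists.

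Rps3a, of the small subunit, had 6.22 in mock B cells (percentile 7.96), 51.98 in irradiated B cells (86.9) and 53.27 in irradiated non-B cells (88.6). Rpl19, of the large subunit, had 6.64 in mock B cells (13.3), 24.58 in irradiated B cells (61.5) and 47.34 in irradiated non-B cells (86). The mock peaks of Rps3a and Rpl19 were among the lowest of their list, only 55 and 66 bp wide, and neither gene was listed in mock non-B cells. All 6 mock-listed members were listed in both IR lists.

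Among listed promoters, the members' peaks also ranked above the middle. In irradiated B cells the highest peak of each of the 77 members had a median percentile of 70.7 (interquartile range 48.1 to 82.4), against 54.4 for all listed promoters. In irradiated non-B cells the median over 75 members was 78.1 (58.5 to 86.1), against 56.5. Over the family the values ran from 10.22 to 255.44 in irradiated B cells (median 30.1, against 21.4 for all listed promoters) and from 6.91 to 389.96 in irradiated non-B cells (median 36, against 21.8). The 40S genes had median percentiles of 71.4 and 79.4 and the 60S genes of 67 and 75.8, so the medians of both subunits lay above those of all listed promoters. By quintile of the whole list from the lowest values to the highest, the members numbered 1, 7, 23, 23 and 23 in irradiated B cells and 2, 6, 13, 20 and 34 in irradiated non-B cells. The median percentiles of the other families were lower, between 54.1 and 59.6 in irradiated B cells and between 57.9 and 66.8 in irradiated non-B cells. With only peaks of at least 20 counted, 54 of 81 members were listed in irradiated B cells (66.7%, against 19.1% of all genes) and 58 in irradiated non-B cells (71.6%, against 19.1%).

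Below Rps27l and Rps19 the values fell off as a continuous series. Rpl7, a large-subunit protein, had 80.55 in irradiated B cells (percentile 93.6) and 83.67 in irradiated non-B cells (94.4). Rpl3, near the peptidyl transferase centre, had 64.73 (90.9) and 81.41 (94.2), and Rpl30, also of the large subunit, had 58.23 (89.2) and 81.44 (94.2). At the other end, Rpl14 had 10.22 (15.7) and 12.62 (25.4), Rpl36al had 12.09 (23.5) and 9.27 (9.74), and Rpl35a had 16.39 (40.8) and 6.91 (1.89). The promoters of Rpl36al and Rpl35a are among the shared ones. None of Rpl7, Rpl3, Rpl30, Rpl14, Rpl36al and Rpl35a had a peak in a mock list.

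Rpl5, Rpl11, Rpl23 and Rpl26 encode proteins tied to Mdm2 or p53 and do not stand for every such member. These 4 were in the upper part of the family in irradiated non-B cells and from about its median upward in irradiated B cells. Rpl5 and Rpl11, which form a particle with 5S ribosomal RNA and bind Mdm2, had 47.22 in irradiated B cells (percentile 84.7) and 60.11 in irradiated non-B cells (90.6), and 42.29 (82) and 51.52 (87.8). Rpl23, also an Mdm2 binder, had 33.54 (74.6) and 57.4 (90). Rpl26, which binds Trp53 mRNA, had 30.1 (70.3) and 61.19 (90.8). All 4 were listed in both IR lists and in no mock list, above the median of all listed promoters in each IR list.

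Among the small-subunit proteins, Rps27a, which is made as a fusion with ubiquitin, had 49.97 in irradiated B cells (86) and 45.94 in irradiated non-B cells (85.1). Rps6, the substrate of the S6 kinases, had 30.13 (70.7) and 43.23 (83.7). Rps14, whose loss drives the anaemia of 5q deletion, had 27.66 (66.9) and 40.54 (81.8). Rps27, the paralogue of Rps27l, had 30.85 (71.4) and 34.14 (76.6), so the Rps27l peak was far higher in rank than that of its paralogue in both compartments. Rps3, which also has a described role in DNA repair, had 18.75 (48.1) and 28.97 (70.1). Rpsa, known too as the laminin receptor precursor, had 20.6 (52.7) and 22.96 (59.2).

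Of the remaining large-subunit proteins chosen for description, Rpl22, required for the development of alpha-beta T cells, had 48.14 in both IR lists (percentiles 85.1 and 86.3). Rplp0, the base of the acidic stalk that recruits translation factors, had 16.41 (41.1) and 19.53 (51). None of Rps27a, Rps6, Rps14, Rps27, Rps3, Rpsa, Rpl22 and Rplp0 was listed in a mock sample.

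**Figure D3:**
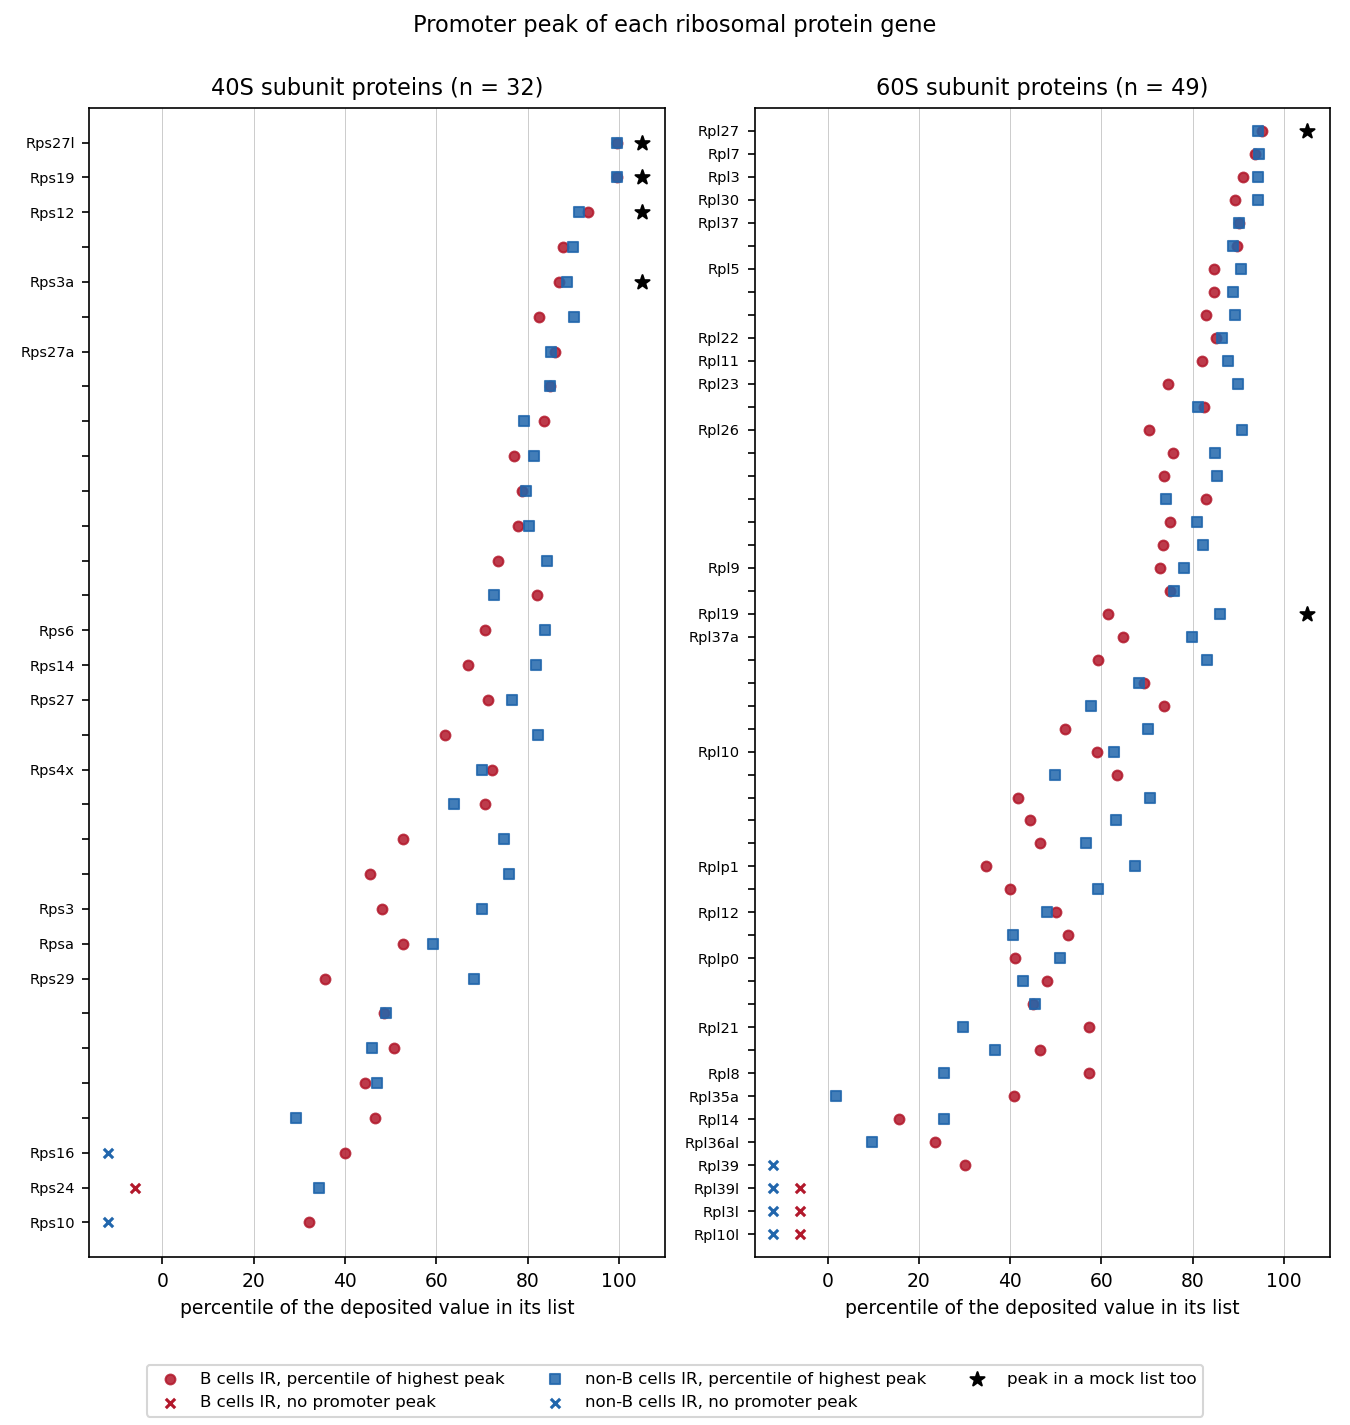
Percentile of the highest promoter peak of each ribosomal protein gene within the list of irradiated B cells (red circles) and irradiated non-B cells (blue squares), with the 32 genes of the 40S subunit on the left and the 49 of the 60S subunit on the right, ordered by their mean and labelled where the text describes the gene. Crosses left of 0 mark genes with no promoter peak in that list and stars mark the 6 genes also listed in a mock sample. Most points lie above 40, Rps27l and Rps19 lie at the top, and Rpl10l, Rpl39l and Rpl3l have no peak in either list.

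B cells and non-B cells shared most of these promoter peaks. The highest peaks of the 74 members listed in both overlapped in 74 cases, with a median gap between midpoints of 49.5 bp and a largest gap of 190 bp. Over all promoters listed in both, 6742 of 7074 overlapped and the median gap was 34 bp, so the members' midpoints were no closer than usual. The percentile was higher in non-B cells for 50 members and in B cells for 24, with a median difference (B minus non-B) of -3.01. Over the 7074 promoters listed in both IR lists the median difference was -0.986, with 3810 higher in non-B cells. Spearman's rho between the 2 lists was 0.832 over the 74 members and 0.768 over the 7074 promoters. These are descriptions across promoters that share 2 libraries and their depth.

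The widest differences went both ways. Rplp1, an acidic stalk protein, was at percentile 34.6 in irradiated B cells and 67.4 in irradiated non-B cells and Rps29 was at 35.7 and 68.3. Rpl35a was at 40.8 and 1.89, Rpl8 at 57.3 and 25.4, and Rpl21 at 57.3 and 29.7. With 1 library per compartment, differences of this size have no replicate spread to be read against.

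A few members were listed in 1 compartment only, each with a value in the lower part of its list. In irradiated B cells alone these were Rps16 (16.19, percentile 40), Rps10 (14.1, 32) and Rpl39 (13.59, 30.2). In irradiated non-B cells alone it was Rps24, which is mutated in some Diamond-Blackfan anaemia (14.51, 34.2). The nearest irradiated B cells peak to a start of Rps24 lay 3630 bp away. Of all genes, 3.4% were listed in irradiated B cells alone and 2.62% in irradiated non-B cells alone, against 3.7 and 1.23% of the members.

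The 3 members with no promoter peak in either IR list were Rpl10l, Rpl39l and Rpl3l. All 3 are paralogues of a member listed in at least 1 IR list, and they are known for restricted expression, Rpl10l and Rpl39l mainly in testis and Rpl3l in heart and skeletal muscle. The nearest peaks to Rpl3l lay 3439 bp (irradiated B cells) and 3386 bp (irradiated non-B cells) from a start site, those to Rpl39l 161161 and 161184 bp, and those to Rpl10l 1111523 and 1003476 bp. The promoter of Rpl3l had a CpG ratio of 0.0882, while those of Rpl39l (0.827) and Rpl10l (0.643) were CpG-rich. The paralogues Rpl10, Rpl39 and Rpl3 had values of 23.51, 13.59 and 64.73 in irradiated B cells, and not every paralogue was unlisted, as Rps27l and Rpl36al show. Without the forms ending in l, x or y, 74 of 75 members were listed in irradiated B cells (98.7%) and 72 in irradiated non-B cells (96%).

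Member peaks sat on the start site. The midpoint of the highest peak lay at a median of -20 bp from the nearest start site in irradiated B cells (interquartile range -63 to 11) and at -22 bp in irradiated non-B cells (-86.5 to 7.5), where negative is upstream. For all listed promoters the medians were -46 and -45 bp. Within 100 bp of a start lay 63 of 77 members in irradiated B cells (81.8%, against 53.2% of all listed promoters) and 58 of 75 in irradiated non-B cells (77.3%, against 56.5%). The position was not particular to members. Mitochondrial ribosomal proteins had 76.6 and 74.2% within 100 bp and ribosome biogenesis factors 74.4 and 77.5%, in the same order. Proteasome subunits had 64.7 and 71.4% and translation factors 58 and 71.7%. Members have a median of 4 annotated start sites and all genes a median of 2, so a nearest start site is found more easily for members. The part of this in the difference from all listed promoters was not tested.

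Under the midpoints of the 88 member peaks of irradiated B cells, the annotation gave sequence upstream of or outside the gene in 40 cases, an untranslated or non-coding exon in 39, an intron in 8 and a coding exon in 1. For the 84 peaks of irradiated non-B cells the numbers were 37 upstream or outside, 35 untranslated or non-coding exon and 12 intron. The member peaks were wide, with a median of 465 bp against 370 bp for all listed promoters in irradiated B cells, and 406 against 341 bp in irradiated non-B cells.

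**Figure D4:**
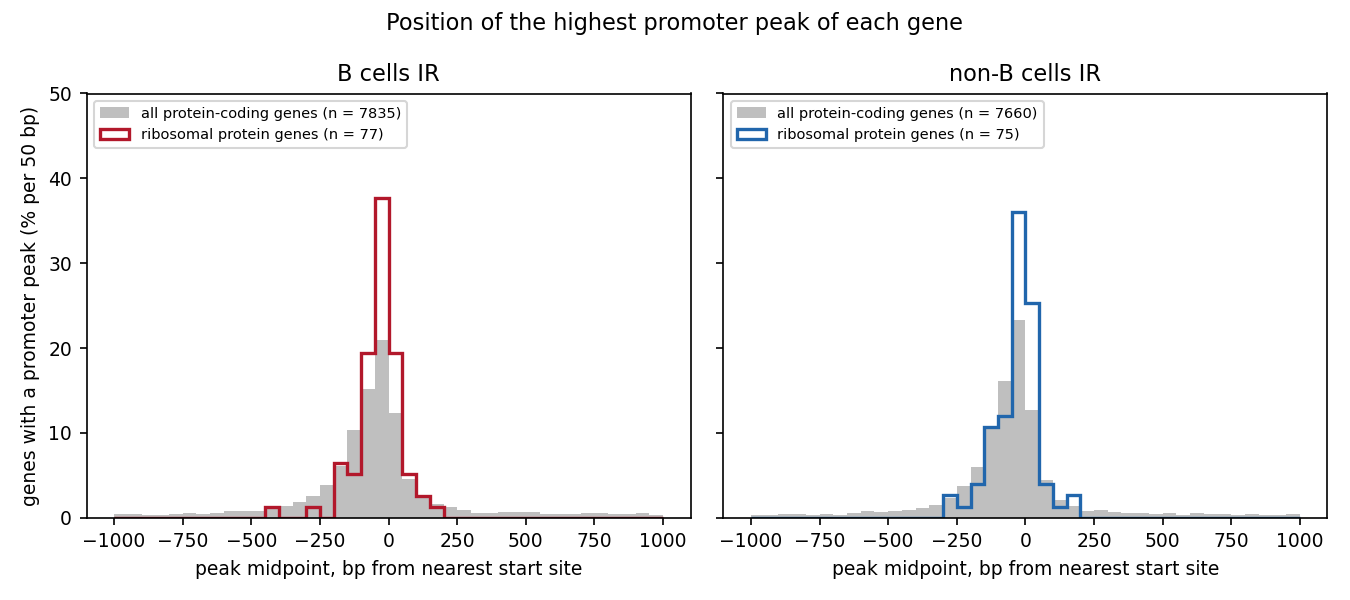
Distance in bp from the nearest start site to the midpoint of the highest promoter peak of each gene, in bins of 50 bp, as percent of the listed genes, for irradiated B cells (left) and irradiated non-B cells (right). Grey areas are all listed protein-coding genes and lines the ribosomal protein genes. Both are centred near the start, and 81.8% (left) and 77.3% (right) of the ribosomal protein peaks lie within 100 bp of it.

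The p53 element was rare under the member peaks and under other promoter peaks. With at most 3 mismatches and no spacer, it lay within 300 bp of the midpoint of 2 of 77 members in irradiated B cells (2.6%, interval 0.316 to 9.07%) and of 2 of 75 in irradiated non-B cells (2.67%, interval 0.325 to 9.3%). Among all listed promoters 4.44% and 4.32% held one. In windows moved by 10 kb, 2.6 and 4% of the members and 3.15 and 3.04% of all listed promoters held one, so the member share in the peaks was not above that in nearby sequence. Rps27l and Rps19 were both members with an element, and they were also 2 of the 6 members listed in mock B cells and 2 of the 3 in mock non-B cells (exact intervals 4.33 to 77.7% and 9.43 to 99.2%). Of all promoters listed in those samples, 10.2% of 304 and 18.5% of 146 held an element.

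With 4 mismatches allowed, Rpl3, Rpl7, Rpl36al and Rps4x were added in irradiated B cells and the last 3 of these in irradiated non-B cells. With a spacer of 0 to 15 bp between the decamers, 17 of 77 members (22.1%) and 19 of 75 (25.3%) held an element, against 34.9 and 33.9% of all listed promoters. No match says only that these letters were not in the window.

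Other promoter features that the choice of members did not use were counted in the same 300 bases, on both strands where not said otherwise. The ETS motif CCGGAAG occurred in 24 of 81 member promoters (29.6%), against 10.8% of all promoters and 19.3% of CpG-rich ones. The Sp1 motif GGGCGG occurred in 39 (48.1%), against 43.9 and 73.1%. The YY1 motif AANATGGC occurred in 9 (11.1%), against 6.7 and 8.9%. The ETS share was also high in the other families, at 35.5% of mitochondrial ribosomal protein, 33.3% of ribosome biogenesis, 29.3% of proteasome and 28.4% of translation factor promoters, values on both sides of that of the members. The Sp1 motif was less frequent in members than in CpG-rich promoters. A TATA box (TATAAA on the gene's strand, 40 to 20 bases upstream) was in none of the 81 and in 2.26% of all promoters.

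Ribosomal protein mRNAs are known for a terminal oligopyrimidine start, a C followed by pyrimidines that couples their translation to growth signals. A C within 5 bases of the annotated start and followed by at least 4 pyrimidines was found in 17 of 81 members (21%), against 17.7% of all promoters. This scan depends on the exact annotated base. The GC content was 55.3% at the median for members and for all promoters, while the median CpG ratio was 0.849 for members and 0.538 for all.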

How the data were processed

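p53 ChIP-seq peak lists of 5 libraries were used, and the input library was not used here. Per the methods and the processing notes of the study, the authors aligned reads with BWA (0.6.2) to mm9, handled alignments with SAMtools and called peaks with MACS, 1 list per library. The deposited column behaves as −log10 of a p-value that the authors' caller gave each peak. The file does not name its scale, and the scale of the Trp53-/- list was taken to be the same.

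Genes and start sites were taken from GENCODE vM1 on NCBIM37 (mm9), and coordinates count from 1. A promoter was listed when a peak midpoint lay within 1 kb of any start site of the gene, and the highest peak represented the gene. Base composition and motifs were read at the start site shared by most coding transcripts. Groups came from the sample labels. Shares carry exact 95% binomial intervals. The members and gene lists were chosen with earlier results of these data known. Named were the 5 highest members per IR list, all mock-listed members, those with an element, those in 1 or neither IR list, and a set of 14 with known roles. Others were named after their values were seen, at the ends of the range and in comparisons. Promoter assignment and the element scan were tested on simulated data and recovered all 5 quantities checked to within 1%. The simulated peaks were placed at isolated genes with a single start site, and the elements in random sequence that held none. Genes with several start sites or a shared promoter, as among the members, were therefore not covered. Windows, start sites, value limits, elements and member rules were varied. Python 3.11.15, pandas 2.3.3, scipy 1.17.1, pysam 0.24.0 and samtools 1.23.1 were used.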

Additional observations from a re-analysis of the deposited data

How the results depend on the processing

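Of 160 alternative values, 140 stayed within the limit set, 19 moved beyond it and 1 changed sign. The limit was 1.5 times for counts and the 95% interval of the median for medians. Listed members per list under another member rule were compared as shares. The number of listed members ranged from 54 to 79 in irradiated B cells and from 58 to 77 in irradiated non-B cells, from 1 to 9 in mock B cells and from 1 to 4 in mock non-B cells, and was 0 in irradiated Trp53-/- spleen throughout. The 77 was of 83 members with the l1 forms added, and the highest count of the 81 in irradiated non-B cells was 76. Only peaks of at least 20 left 1 member in each mock list, and among all genes 28 in mock B cells, 4279 in irradiated B cells, 23 in mock non-B cells and 4268 in irradiated non-B cells, fewer by construction. A limit of 8 left 196 genes in mock B cells, and cutting the paired lists to equal length left 134. Ranked among promoter peaks only, the members' median percentile in irradiated B cells was 76.1, and ranked by width that in irradiated non-B cells was 68.6. From the most upstream start site the median distance was -1 bp in irradiated B cells and 2.5 bp in irradiated non-B cells, the value that changed sign.

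Members with an element numbered 6 (irradiated B cells) and 5 (irradiated non-B cells) at 4 mismatches, 17 and 19 with a spacer, and 0 and 0 within 100 bp of the midpoint, where the mock lists kept 0 (B cells) and 1 (non-B cells). The cause of the moves was not tested unless said. No paired analysis was possible because the groups hold a single library each, and no replicate could be left out. Depth is unknown and values are not normalised between libraries.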
